A study of Mus musculus with 2 samples.

Results

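KDM4A chromatin immunoprecipitation libraries from 3T3-L1 cells held 2 places, 1 on chromosome 1 and 1 on chromosome 2, where reads lay several times more densely than around them over a long, sharply bounded stretch. They were chosen by their measured read density, from all 10 kb bins of a 4 Mb window on chromosome 1 (188000001 to 192000000) and a 2.5 Mb window on chromosome 2 (76500001 to 79000000), in build mm8 as the submitters' processing notes name it. The windows held 650 bins of the 246253 bins of 10 kb on the 19 autosomes. Reads of mapping quality at least 30 were counted, with 1 read kept per 5′ position and strand. The level of a bin is its read number divided by the median read number of the library's autosomal bins. A bin was called dense at a level of at least 2 in both libraries, dense bins were joined over up to 30 kb, and a run of at least 50 kb was called a stretch. That gave 96 bins on chromosome 1 and 16 bins on chromosome 2, and left 538 bins as the rest of the windows.

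KDM4A (JMJD2A) is a histone demethylase that acts on methylated lysines of histone H3, marks that help to set whether a promoter is used. GPS2 works within the corepressor complex built on NCoR and SMRT, and 3T3-L1 is a mouse preadipocyte line that becomes fat-storing when given adipogenic hormones. Sites bound by a chromatin protein usually appear in ChIP-seq as narrow piles of reads whose forward-strand and reverse-strand reads are shifted apart. The reads between such piles come from background fragments, and their density follows how many copies of a stretch the cells carry and how much of it can be mapped uniquely. An input library, made without the antibody, measures that background directly, and none was used here. Read density from more DNA copies, from copies absent from the reference and from broad antibody signal therefore cannot be told apart.

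The groups were 3T3-L1 cells given control siRNA (siCTL) and 3T3-L1 cells given siRNAs against GPS2 (siGPS2), with 1 library each. Cells of both groups were transfected and induced to differentiate, and the antibody was the same. The time of differentiation and the levels of GPS2 and KDM4A were not analysed here. With 1 library per group there is no replicate check and no p-value. Every interval below is a 95% interval for counting error only and does not cover the spread between replicate libraries. The reads carry no molecular identifier, so whether they are independent molecules could not be checked. A ratio compares these libraries and not the conditions.

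The siCTL library held 5487457 distinct reads of mapping quality at least 30 and the siGPS2 library 4115473. The autosomal median was 21 reads per 10 kb in siCTL and 15 in siGPS2, and the mean was 21.6 and 16.2. The medians are small whole numbers and stand in a ratio of 0.714, against 0.751 for the means and 0.750 for the read totals. Levels scaled to the median are therefore higher by about that margin in siGPS2 than levels scaled to depth, and both scales are given for each ratio between the libraries.

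The chromosome 1 stretch ran from 189240001 to 190200000, or 960 kb. It held 12080 siCTL reads, a level of 5.99 (exact Poisson interval 5.89 to 6.10), and 9073 siGPS2 reads, a level of 6.30 (6.17 to 6.43). Its bins ran from 2.38 to 7.86 in siCTL, with a median of 6.10, and from 2.87 to 8.13 in siGPS2, with a median of 6.40. All 96 bins were dense, so nothing had to be joined. The parts of the window to its left and right had levels of 1.07 and 0.837 in siCTL and of 1.15 and 0.893 in siGPS2.

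The chromosome 2 stretch was shorter and denser, from 77670001 to 77830000, or 160 kb. It held 4551 siCTL reads, a level of 13.5 (13.2 to 13.9), and 3535 siGPS2 reads, a level of 14.7 (14.2 to 15.2). Its bins ran from 4.52 to 19.0 in siCTL and from 6.20 to 21.7 in siGPS2, so its most and least dense bins differed several-fold. The window to its left and right had levels of 1.20 and 1.03 in siCTL and of 1.34 and 1.05 in siGPS2.

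**Figure D1:**
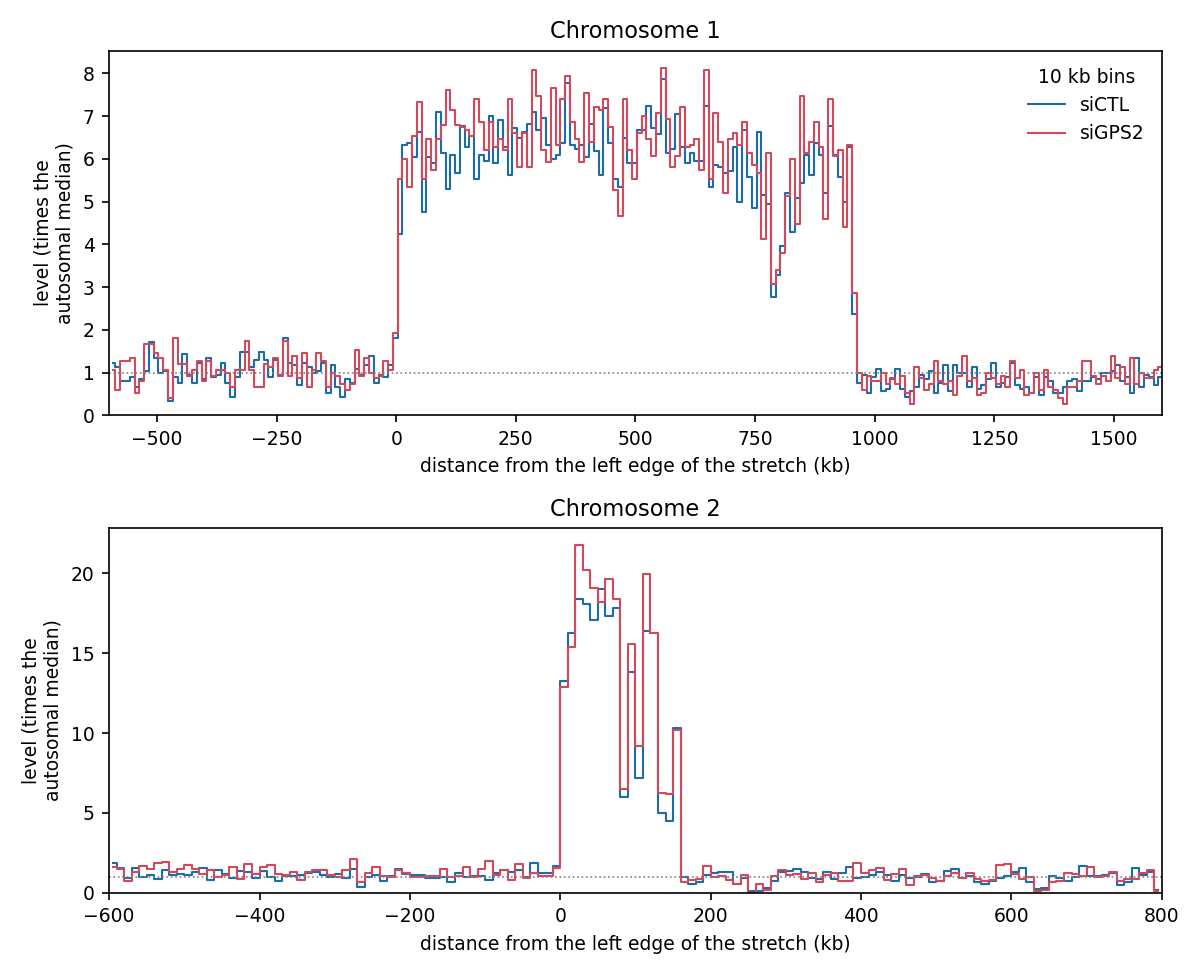
Level of 10 kb bins (y axis, times the autosomal median of each library) against distance from the left edge of each stretch in kb (x axis), for siCTL (blue) and siGPS2 (red); the dotted line is a level of 1. Both libraries step up to about the same height on chromosome 1, between 2.38 and 8.13 over 960 kb, and on chromosome 2 both rise above 15 and drop in the same bins.

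All 112 bins of the stretches and 0 of the 538 bins of the rest of the windows passed the level of 2 in both libraries. This is how they were chosen, and it is a description. Over all autosomal bins, 1.26% passed. Several bins of the rest of the windows came close to the threshold. The bin just outside the left end of the chromosome 1 stretch had levels of 1.81 and 1.93, in siCTL and siGPS2, and the next bin inside had 4.24 and 5.53. At its right end the last bin inside had 2.38 and 2.87, and the next outside had 0.762 and 1.0. The bins outside the left and right ends on chromosome 2 had 1.67 and 1.0 in siCTL and 1.53 and 0.667 in siGPS2, against 13.3 and 10.3 just inside in siCTL and 12.9 and 10.2 in siGPS2.

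Under the same definition the autosomes held 267 stretches, with a median length of 70 kb, and 257 of them had levels under 3 in both libraries. A level of 5 in both was reached by 5. The chromosome 1 stretch was the longest of all 267 and the fifth by level. The chromosome 2 stretch was the fourth by level and the 35th by length. The 3 with higher levels lay on chromosome 10 (116780001 to 117250000, at 67.9 in siCTL and 75.4 in siGPS2, and 106610001 to 106670000, at 51.3 and 52.1) and on chromosome 11 (3020001 to 3100000, at 30.3 and 34.4).

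The edges were placed by the single step in 1 kb bins with the highest Poisson likelihood. On chromosome 1 the first dense position was 189237001 and the last was 190197000 in both libraries, which gives 960 kb in each. On chromosome 2 the positions were 77670001 and 77828000 in both, or 158 kb. The positions within 2 log-likelihood units of the best covered no other 1 kb bin, except at the right edge on chromosome 1 in siGPS2, where they ran from 190196000 to 190197000. The libraries thus placed all 4 edges in the same 1 kb bin.

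The read numbers beside the edges show how abrupt the steps were. At the right edge on chromosome 2, 138 siCTL reads lay in the 5 kb inside and 6 in the 5 kb outside, and 111 and 4 siGPS2 reads did. At its left edge the numbers were 106 inside and 16 outside in siCTL and 65 and 11 in siGPS2. The left edge on chromosome 1 had 48 inside and 4 outside in siCTL, and 37 and 7 in siGPS2. Its right edge had 35 and 7 in siCTL, and 29 and 3 in siGPS2. The edges were placed on these same reads, so higher numbers inside than outside are a description only. The first kb inside held more reads than the first kb outside at all 4 edges in both libraries. The difference was least at the right edge on chromosome 1 in siGPS2, where 4 reads against 2 lie within counting error.

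A finer grid of 100 bp bins, chosen after seeing the data, was searched only within 5 kb of the 1 kb edge of each library. Those 1 kb edges were the same in both libraries, so the search itself limits how far apart the finer edges can lie. On this grid the libraries placed 3 of the 4 edges within 1 kb of each other. On chromosome 2 the left edge was at 77670501 in both, and the right edge was at 77827900 in siCTL and 77828100 in siGPS2. The right edge on chromosome 1 was at 190196800 and 190197400. Its left edge was at 189237001 in siCTL and at 189241601 in siGPS2, the latter close to the end of the range searched. Between these positions siGPS2 had 10, 5, 3 and 4 reads in the first 4 successive kb, so the step there was less distinct in the shallower library.

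**Figure D2:**
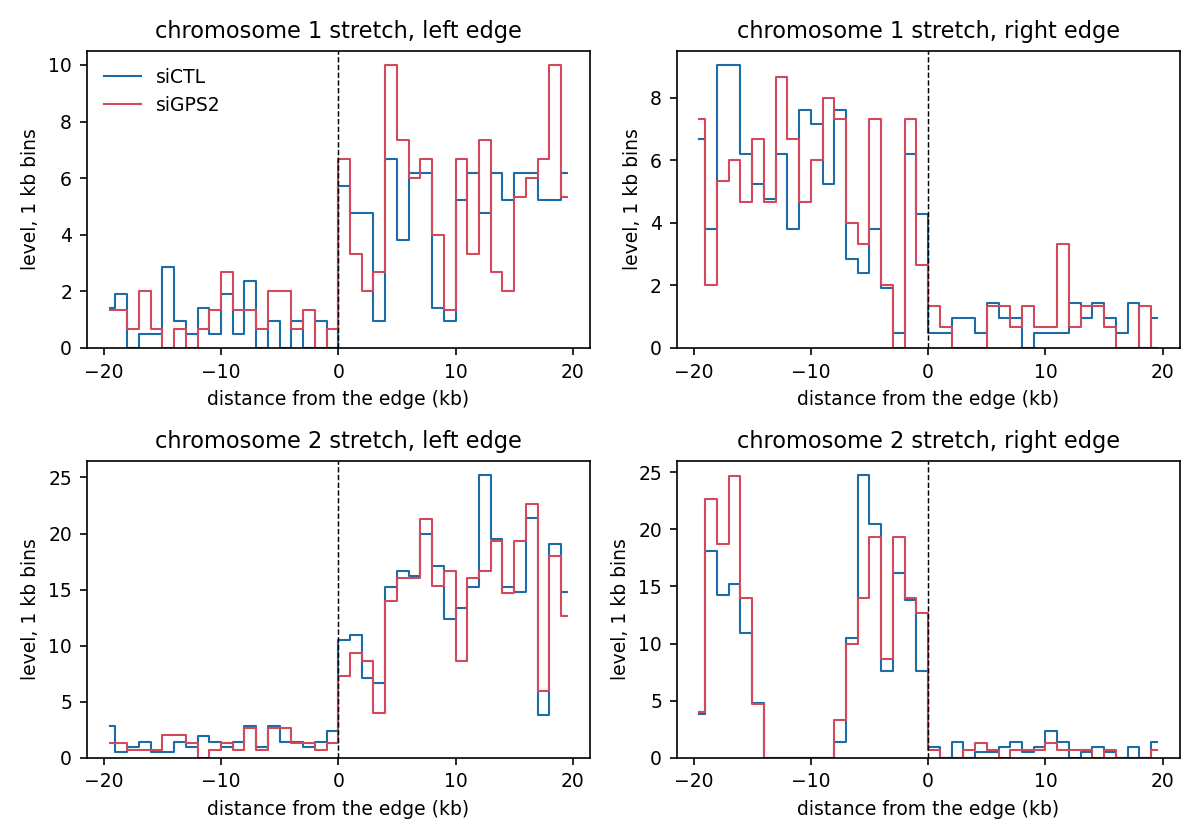
Level in 1 kb bins (y axis, times the autosomal median per kb) within 20 kb of each of the 4 edges (x axis, distance in kb; dashed line, the 1 kb edge shared by both libraries), siCTL in blue and siGPS2 in red. The step is complete within a few kb at every edge; inside the right edge on chromosome 2 the level falls to 0 in a gap that both libraries share.

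The libraries differed little in the stretches. Scaled to the medians, the ratio of siGPS2 to siCTL was 1.05 (exact conditional interval 1.02 to 1.08) on chromosome 1 and 1.09 (1.04 to 1.14) on chromosome 2. Scaled to the distinct reads of mapping quality at least 30, it was 1.0 (0.974 to 1.03) and 1.04 (0.991 to 1.08), and both intervals then held 1. The chromosome 1 stretch held 0.220% of those reads in each library, and the chromosome 2 stretch held 0.0829% in siCTL and 0.0859% in siGPS2. On the depth scale the flanks of the windows had ratios of 1.02 and 1.02 on chromosome 1 and of 1.06 and 0.970 on chromosome 2. The 5 Mb on either side had 0.997 and 1.03 on chromosome 1 and 1.01 and 0.978 on chromosome 2, so neither stretch lay outside the range of its surroundings.

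Bin by bin, 0 of the 112 bins of the stretches were lower and 0 were higher in siGPS2 by at least 1.5-fold with at least 30 reads over both libraries. Among all autosomal bins with at least 30 reads 8.27% were lower and 11.9% were higher. The rest of the windows had 32 lower and 53 higher bins of 418. The stretches' bins rest on more reads, with a median of 225 on chromosome 1 and 579 on chromosome 2 over both libraries, against 37 over all autosomal bins. With a minimum of 60 reads, 2.95% of 20662 autosomal bins were lower by the fold and 9.78% higher. The ratio of single bins, scaled to the medians, ran from 0.804 to 1.44 on chromosome 1 and from 0.948 to 1.37 on chromosome 2.

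**Figure D3:**
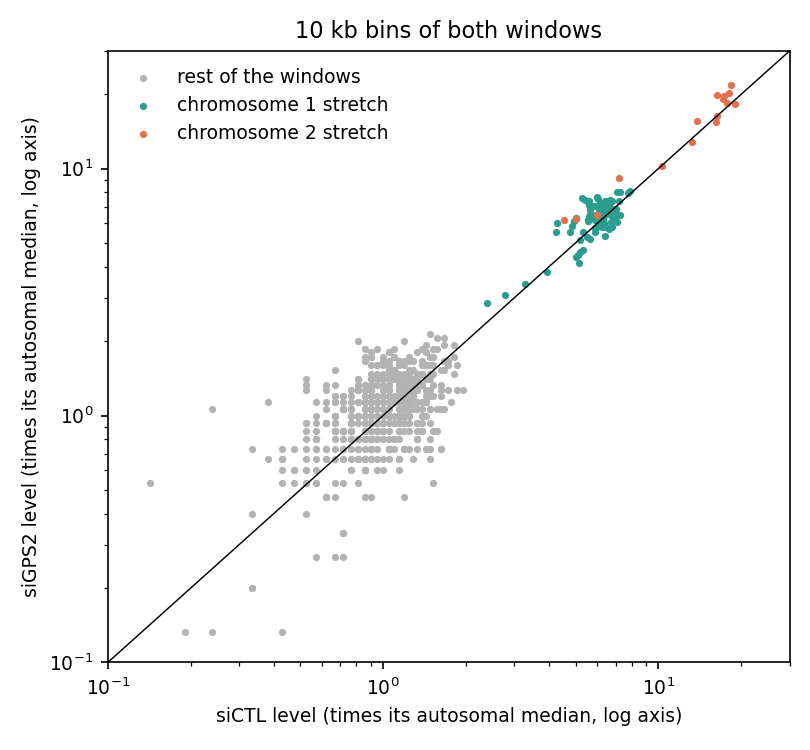
Level in siGPS2 (y axis, log scale) against level in siCTL (x axis, log scale) for the 10 kb bins of both windows; the line marks equal levels, and 1 bin of the rest of the windows with 0 siGPS2 reads is not drawn. The bins of the stretches (green and orange) lie along the line, and the chromosome 2 bins reach down among those of chromosome 1. They lie apart from the rest (grey) because a level of at least 2 in both libraries was used to choose them.

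The libraries came from the same run and lane, as the read names give it, and 14 flow-cell tiles held over 100000 reads of each. Across those tiles the chromosome 1 stretch took 0.208 to 0.236% of the siCTL reads and 0.202 to 0.238% of the siGPS2 reads. The chromosome 2 stretch took 0.0718 to 0.0912% and 0.0715 to 0.0975%. The ratio of the siGPS2 share to the siCTL share in single tiles ran from 0.885 to 1.13 on chromosome 1, with a median of 0.996, and from 0.805 to 1.35 on chromosome 2, with a median of 1.03. The interval of the ratio held 1 in 12 of 14 tiles on chromosome 1 and in 11 of 14 on chromosome 2. Each of these 14 tiles held reads of both stretches in both libraries, and the other tiles were not examined.

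Within the chromosome 1 stretch the partition of 10 kb bins into levels found no inner step. The stretch was a plateau of 6.03 in siCTL and 6.34 in siGPS2 between a left part at 1.07 and 1.15 and a right part at 0.846 and 0.904. In 1 kb bins, a partition added after seeing the data, a single gap of 6 kb appeared from 190037001 to 190043000. It held 0 reads of mapping quality at least 30 in each library, which allows a level of up to 0.238 in siCTL and 0.333 in siGPS2 (3 reads), and 14 and 10 reads below that quality. To its left, 800 kb had levels of 6.14 (6.02 to 6.26) in siCTL and 6.45 (6.30 to 6.59) in siGPS2. To its right, 154 kb had 5.53 (5.28 to 5.80) and 5.86 (5.55 to 6.18), lower than the left piece in both libraries with intervals that do not overlap. The intervals cover counting error only, and the bins of the stretch varied more than counting gives.

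The same difference shows when the distance between the edges is divided into 4 equal parts, also chosen after seeing the data. In siCTL the levels were 6.06, 6.40, 6.30 and 5.27 from left to right, and in siGPS2 they were 6.51, 6.65, 6.53 and 5.56. The last of them, which holds the gap and the piece to its right, was the lowest in both, so it is no separate check. Bins were ranked by the mean of their levels in both libraries, and the order within 1 library differs. Of the 5 least dense bins by this rank, 3 lay side by side around the gap (190020001 to 190050000), at 2.76, 3.29 and 3.95 in siCTL and 3.07, 3.40 and 3.80 in siGPS2. The gap touches only the last pair of these. The others were the bin cut by the right edge and the bin at 190000001, at 5.14 and 4.13. The 5 densest by the same rank, at 189790001, 189590001, 189880001, 189520001 and 189670001, had levels of 7.10 to 7.86 in siCTL and of 7.40 to 8.13 in siGPS2, and all lay to the left of the gap.

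Inside the chromosome 2 stretch the 10 kb partition found 3 successive levels, or 2 under a penalty of 30 times the log of the number of bins in place of 10 times. They were 17.1 and 18.2 in siCTL and siGPS2 over the first 80 kb, 11.9 and 13.5 over the next 50 kb, and 6.62 and 7.56 over the last 30 kb. In 1 kb bins this descent resolved into 5 dense pieces separated by 4 gaps of 6 or 7 kb. The pieces, of 83, 10, 27, 5 and 7 kb, had levels of 17.2, 14.1, 15.7, 12.7 and 14.4 in siCTL and of 18.3, 15.9, 17.9, 16.9 and 14 in siGPS2. The pieces thus differed less in level, from 12.7 to 17.2 in siCTL, than the 10 kb segments did, from 6.62 to 17.1. The gaps take up 16.5% of the distance between the edges.

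The gaps of the chromosome 2 stretch were at the same positions in both libraries by construction, since the partition used both, and their read numbers were low in each alone. From 77753001 to 77759000 there were 0 siCTL and 0 siGPS2 reads, and from 77769001 to 77775000 there were 0 and 2. The gap from 77802001 to 77809000 held 14 and 16, a level of 0.952 (0.521 to 1.60) and 1.52 (0.871 to 2.47), with intervals that hold 1. The gap from 77814001 to 77821000 held 3 and 5. Over the 4 gaps, reads of mapping quality below 30 were present at 22.7 per 10 kb in siCTL and 23.1 in siGPS2, against 3.96 and 3.05 over the autosomes and 129 and 93.3 in the dense pieces.

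With the gaps left out, 132 kb of the chromosome 2 stretch had a level of 16.3 (15.9 to 16.8) in siCTL and 17.7 (17.2 to 18.3) in siGPS2. The 954 kb left on chromosome 1 had 6.04 (5.94 to 6.15) and 6.35 (6.22 to 6.48). Chromosome 2 was then 2.71 times as dense as chromosome 1 in siCTL (2.61 to 2.80) and 2.79 times in siGPS2 (2.68 to 2.90). The ratio of siGPS2 to siCTL without the gaps was 1.05 (1.02 to 1.08) and 1.08 (1.04 to 1.13) by the medians, and 1.0 (0.974 to 1.03) and 1.03 (0.988 to 1.08) by depth.

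**Figure D4:**
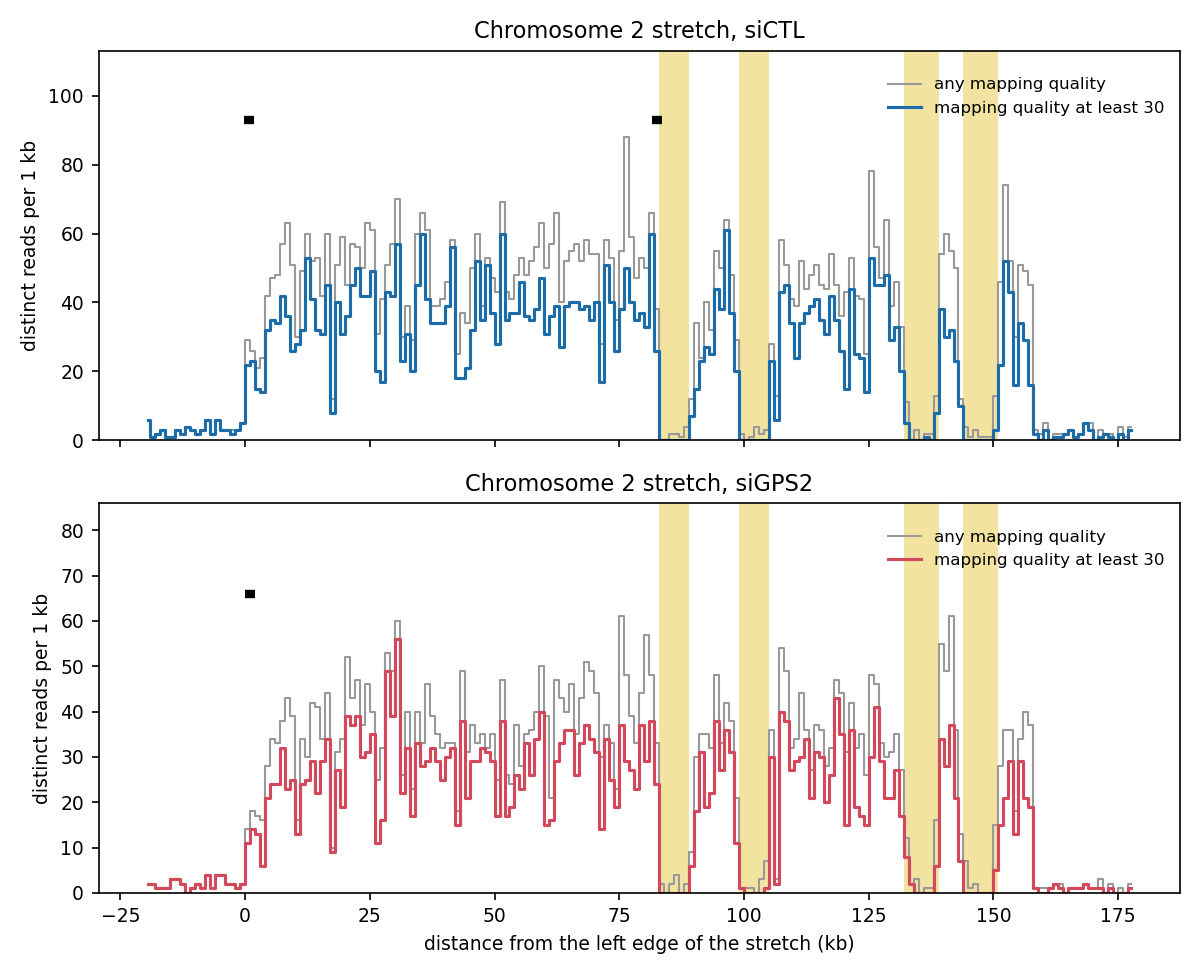
Distinct reads per 1 kb (y axis) across the chromosome 2 stretch (x axis, distance from its left edge in kb) in siCTL (top) and siGPS2 (bottom), for reads of any mapping quality (grey) and of at least 30 (coloured). Yellow bands are the 4 gaps of 6 or 7 kb, where both lines fall low, and black bars are the peaks each library's deposited list has there, 2 in siCTL and 1 in siGPS2.

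Evenness was measured as the coefficient of variation (CV) of reads per 10 kb bin. On chromosome 1 it was 15.3% in siCTL and 16.3% in siGPS2, where counting noise alone gives 8.91% and 10.3%. With the end bins and those touching the gap left out, a choice made after seeing the data, it was 12.3% and 13.9% over 92 bins. The rest of the windows had 29.1 to 30.8% in siCTL and 31.6 to 32.1% in siGPS2, of which counting alone gives 20.6 to 25.8%. After taking off the counting part, the chromosome 1 stretch kept 12.4% and 12.7% and the rest of its window 20.9% and 19.1%. The stretch had the lower of these values in each library.

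On chromosome 2 the CV was 38.3% in siCTL and 37.0% in siGPS2, against a counting part of 5.93% and 6.73%. Over the 9 bins that neither end the stretch nor touch a gap it was 5.69% and 10.5%, against 5.23% and 5.96% from counting. The siCTL reads of those bins ran from 341 to 399 and the siGPS2 reads from 231 to 326. In 1 kb bins without the gaps, however, the CV was 34.4% and 34.8% (counting part 17.1% and 19.4%), and on chromosome 1 it was 33.4% and 37.6% (28.1% and 32.4%). At that scale chromosome 2 was thus the less even of the stretches beyond counting, at 29.8% and 28.9% against 18.2% and 19.1%.

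Part of the unevenness was shared by the libraries. Across the 96 bins of chromosome 1 the read numbers of siCTL and siGPS2 had a Pearson correlation of 0.716, across the 16 bins of chromosome 2 of 0.967, and across the rest of the windows of 0.513 (538 bins). Without the end bins and those touching a gap these fell to 0.599 (92 bins) and 0.521 (9 bins). Over those 9 bins siCTL varied little beyond counting, with a CV of 5.69% against 5.23%. These correlations are across bins that share sequence, mappability and lane, and they describe these libraries only.

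Neither strand was favoured beyond counting error. The forward share on chromosome 1 was 50.7% (exact binomial interval 49.8 to 51.6) of 12080 siCTL reads and 50.3% (49.3 to 51.4) of 9073 siGPS2 reads. On chromosome 2 it was 50.3% (48.8 to 51.7) of 4551 and 49.6% (47.9 to 51.3) of 3535. All 4 intervals held 50%. Of the 96 bins on chromosome 1, the interval of single bins excluded 50% in 2 in siCTL (1 above and 1 below) and in 3 in siGPS2 (all above). It excluded 50% in 0 of the 16 bins on chromosome 2 in each library, whose forward shares ran from 45.3 to 53.8% in siCTL and from 44.1 to 56.3% in siGPS2. In the rest of the windows, where bins hold fewer reads, 8 bins lay above and 13 below 50% of 538 in siCTL. In siGPS2 5 lay above and 6 below of 537.

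The stretches differed in how well their reads could be placed. The mapping quality of a read is the aligner's score for how surely its position is the right one. It can be low where a near copy of the sequence exists elsewhere in the reference, which was not examined here. On chromosome 1, 96.7% of all distinct siCTL reads and 96.3% of siGPS2 reads had a quality of at least 30, above the 84.5% and 84.1% of the autosomes and above every flank within the window. The stretch was chosen for its many reads of that quality, so its higher share is a description only. Reads below that quality were also more frequent there, at 4.34 per 10 kb in siCTL and 3.64 in siGPS2. Its left and right flanks in the window had 2.32 and 1.89 in siCTL and 1.68 and 1.67 in siGPS2. On chromosome 2 only 72.0% and 73.2% did, while its flanks in the window had 85.8 to 94.0%.

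Most of the remaining reads on chromosome 2 were of an intermediate quality, from 10 to 29, a division made after seeing the data. They made up 16.9% (exact binomial interval 15.98 to 17.8) of the siCTL reads and 16.2% (15.2 to 17.3) of the siGPS2 reads there. The chromosome 1 stretch had 1.46% and 1.54%, the flanks on chromosome 2 had 1.39 to 3.48% and the autosomes had 2.33% and 2.38%. In every one of the 16 bins the share was above the autosomal value, with a lowest of 11.4% in siCTL and 9.14% in siGPS2. Of the 3 denser stretches elsewhere, the one on chromosome 11 had 12.6% in each library, and those on chromosome 10 had 0.351 to 2.13%. The part of mapping quality in the level of the chromosome 2 stretch was not tested beyond counting reads of any quality, which gave 16.4 in siCTL and 16.8 in siGPS2.

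**Figure D5:**
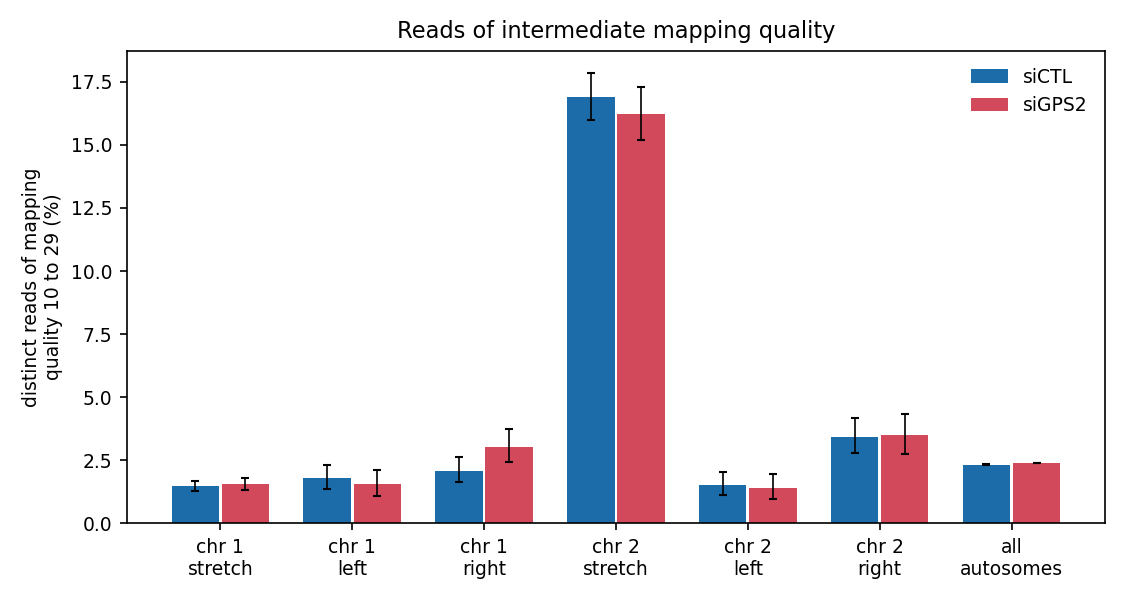
Share of distinct reads of mapping quality 10 to 29 (y axis, percent; bars start at 0, error bars are exact binomial 95% intervals) in each stretch, in the window left and right of it and on all autosomes, for siCTL (blue) and siGPS2 (red). The chromosome 2 stretch stands at 16.9 and 16.2%, and the other regions lie at 1.39 to 3.48%.

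No position repeated among reads of mapping quality at least 30 in either stretch, in the reads as deposited. Whether repeated reads had been removed before deposit was not examined here, so this gives no measure of duplication in the libraries. The 12080 and 9073 reads on chromosome 1 occupied 0.629% and 0.473% of the positions and strands there, and those on chromosome 2 occupied 1.42% and 1.10%. Most positions were thus unused in both libraries.

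The flanks on either side of a stretch did not have the same level. On chromosome 1 the window to the left was denser than that to the right by 1.28 times in siCTL (1.22 to 1.35) and 1.29 times in siGPS2 (1.21 to 1.37). Over 5 Mb on each side, a distance chosen after seeing the data, it was denser by 1.14 (1.11 to 1.18) and 1.10 (1.07 to 1.14). Beside the chromosome 2 stretch the left window was denser by 1.17 (1.11 to 1.23) and 1.27 (1.20 to 1.35), and the left 5 Mb by 1.30 (1.27 to 1.33) and 1.34 (1.30 to 1.38). The 5 Mb left of the chromosome 2 stretch lay at 1.28 and 1.36 and the 5 Mb right of it at 0.986 and 1.01. The share of reads with a quality of at least 30 also differed there, at 93.4% and 92.8% on the left and 84.7% and 83.8% on the right. Its part in the difference was not tested.

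The deposited lists had 9 peaks inside the stretches, each 2000 bp wide, with 6 of the 1657 siCTL peaks and 3 of the 1349 siGPS2 peaks. On chromosome 1 there were 4 and 2, and on chromosome 2 there were 2 and 1. The rest of the windows had 1 in each list, which overlapped, at 188769019 and 188769032. Per Mb the stretches held 5.36 siCTL peaks (exact Poisson interval 1.97 to 11.7) and 2.68 siGPS2 peaks (0.552 to 7.83), against 0.637 and 0.517 over the autosomes. This is a description only, since the stretches were chosen for dense reads and the peaks come from the same reads. The intervals also treat peaks as independent, although some of the siCTL peaks overlap each other. The lists shared 2 places: 2 of the 6 siCTL peaks and 2 of the 3 siGPS2 peaks overlapped one of the other list. None stood among the first 100 of its list, the earliest places being 182 in siCTL and 181 in siGPS2.

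Most of these peaks lay where the read density itself stepped. Of the 9, 7 had their centre within 3 kb of an edge of a stretch or of a gap, a distance chosen after seeing the data, and 6.35% of the length of the stretches lies that close to one (1.88% on chromosome 1 and 33.5% on chromosome 2). This is a description only, since steps and peaks come from the same reads and most of the 7 overlap another of them. At the left edge on chromosome 2 the siCTL peak at 77669730 to 77671729 and the siGPS2 peak at 77670019 to 77672018 overlapped. The other siCTL peak there, at 77751517 to 77753516, ended in the first gap. On chromosome 1, a pair of siCTL peaks that overlap each other, at 190194157 and 190195213, lay at the right edge. A further pair, 190033951 to 190035950 in siCTL and 190033837 to 190035836 in siGPS2, lay left of the gap at 190037001. The 2 away from any step were at 189901224 in siCTL and 189319273 in siGPS2, and neither was overlapped by a peak of the other list.

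A peak at a step has a dense flank and a sparse one, so its centre (300 bp) was set against the denser of its flanks, the 8 kb from 2 to 10 kb away. This comparison was chosen after seeing the data and used only reads of mapping quality at least 30. It gave intervals above 1 only for the pair left of the chromosome 1 gap. The siCTL peak had 6 reads at the centre, 2.86 times the density of its denser flank (1.01 to 6.62), and the siGPS2 peak had 8, or 6.67 times (2.65 to 14.8). The other 7 had 0.503 to 1.93 times in their own library, with intervals that held 1. At the left edge on chromosome 2 the siCTL peak had 14 reads at its centre and a ratio of 1.55 (0.834 to 2.65), and the siGPS2 peak had 9 and a ratio of 1.43 (0.642 to 2.78). The siCTL peak beside the first gap had 13 reads and a ratio of 1.15 (0.604 to 1.99).

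In reads of mapping quality at least 30, no peak centre exceeded the read number that 99% of the 300 bp windows of its stretch stayed within. On chromosome 2 the median window held 9 siCTL and 6 siGPS2 reads, 99% of windows held at most 23 and 19, and the peak centres held 13 and 14 in siCTL and 9 in siGPS2. On chromosome 1 the medians were 4 and 3 and the corresponding limits 10 and 8. The centres of its siCTL peaks held 2, 6, 4 and 3 reads, in list order, and those of its siGPS2 peaks held 5 and 8. With reads of any quality the centres on chromosome 1 held 5, 7, 4 and 3 in siCTL and 8 and 11 in siGPS2. Those on chromosome 2 held 20 and 16 in siCTL and 10 in siGPS2. The ratios and limits above leave out the reads below quality 30. The siCTL peak at 189901224 thus had fewer reads of quality at least 30 at its centre than the median window, with 5 reads of any quality there. No gene is assigned to the stretches, gaps or peaks, as no annotation in build mm8 was used here.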

How the data were processed

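Aligned reads and a peak list were deposited for each of 2 KDM4A ChIP-seq libraries of 3T3-L1 cells, 1 per group. Per the submitters' processing notes the tools were Bowtie and HOMER and the build was mm8; roles and versions are not given in the sources used here. The only measured column of the deposited reads is a mapping quality score (0 to 42), which is not normalized. The peak lists hold other values, namely coordinates that the authors deposited per library, with no strength; starts were taken to count from 0, which the lists do not state. Truncated lines (3 siCTL, 6 siGPS2) were dropped, which left 6568834 and 4947088 reads, at 6559860 and 4940261 distinct positions.

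Reads were binned by their 5′ end with Python 3.11.15, NumPy 2.4.6 and SciPy 1.17.1, and figures were drawn with Matplotlib 3.10.9. Positions are printed counting from 1. Levels carry exact Poisson intervals, shares exact binomial (Clopper-Pearson) intervals and ratios exact conditional intervals. Steps inside the windows were placed by optimal partitioning with a Poisson cost over both libraries, a penalty of 10 times the natural log of the number of bins and at least 3 bins (2 in 1 kb bins) per segment. Edges were sought within 100 kb of each end in 1 kb bins, and within 5 kb of the edge so found in 100 bp bins. The code was tested on simulated data. The regions named are both stretches, the 5 densest and 5 least dense bins of a stretch of at least 20 bins, breaks, the deposited peaks inside and the 3 bins beside each edge. Members, lists and rules were chosen with earlier results of these data known. Other settings tried are given in the closing section. No sequence is printed, as no genome of build mm8 was used here.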

Additional observations from a re-analysis of the deposited data

How the results depend on the processing

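The 8 alternatives run for the number of stretches each gave 2. Of 136 alternative values 97 stayed within the spread allowed and 39 moved. A change of direction was scored only for the ratios of siGPS2 to siCTL, and 0 of these showed one. Some values could hardly move, since no read of quality at least 30 repeated in the stretches and no bins there had to be joined. Levels in the chromosome 1 stretch, in siCTL and siGPS2, were 5.81 and 6.0 with mapping quality at least 10, 5.42 and 5.45 with any mapping quality, 5.83 and 5.84 over the mean of all bins, and 5.72 and 5.91 over the median of bins with a read. In the chromosome 2 stretch they were 15.96 and 16.9, 16.4 and 16.8, 13.2 and 13.6, and 12.9 and 13.8, and 16.3 and 17.7 with the gaps left out. The ratio of siGPS2 to siCTL on chromosome 1 and chromosome 2 was 1.0 and 1.04 scaled to distinct reads, 1.01 and 1.02 with reads of any mapping quality, and 1.0 and 1.03 scaled to the autosomal means. These intervals hold 1. Those scaled to the medians of reads of quality at least 30 do not, and these medians stand in a ratio of 0.714 against 0.750 for depth.

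Autosomal bins past the fold, lower and higher, numbered 609 and 2020 with at least 60 reads and 2764 and 3490 at a fold of 2, where those of the stretches stayed at 0. In 100 bp bins the left edge on chromosome 1 moved to 189241601 in siGPS2. The CV on chromosome 1 was 13.1% in siCTL over bins with at least 80% of reads of quality 30, 12.5% and 13.3% in 20 kb bins, and 12.3% and 13.9% without end and gap bins. On chromosome 2 it was 5.69% and 10.5% without those bins, and 3.00% in siGPS2 over the 3 bins with at least 80% of such reads; siCTL had 0 such bins there and gives no value. The first part of the siCTL list kept 2 of its 4 peaks in the chromosome 1 stretch. Partition in 1 kb bins gave 5 segments on chromosome 1 and 11 on chromosome 2, in place of 3 and 5, and a penalty of 30 times in 10 kb bins gave 3 and 4. The partition in 1 kb bins, the edges in 100 bp bins, the settings without gaps or end bins and the scaling to means were added after seeing the data. Depth limits the gaps, where a few reads decide the value. No paired analysis was possible because each group has 1 library.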
